A study of Drosophila melanogaster with 10 samples.

Results

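Heat shock proteins are molecular chaperones that bind unfolded proteins, hold them in a soluble state and help them refold. Small heat shock proteins hold unfolded chains without using ATP, Hsp70 and Hsp90 proteins refold or mature clients with ATP, and chaperonins enclose them in a chamber. Many of these genes are nearly silent in resting cells and are switched on by the heat shock factor Hsf, while others work at all times. The genes described here are 10 of this system in Drosophila melanogaster, chosen by symbol from the 14310 genes of the deposited table. They are the small heat shock genes Hsp22, Hsp23, Hsp26, Hsp27 and Hsp67Bc, the Hsp70 genes Hsp68 and Hsc70-4, the Hsp90 gene Hsp83, the mitochondrial chaperonin gene Hsp60A, and Hsf. All 10 members were found by symbol, and all 10 passed the filter of a mean of at least 1 TPM over the libraries, Hsp67Bc only narrowly.

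RNA was sequenced from midguts of adult males fed yeast alone at 25 °C and dissected on day 7 after eclosion, with 20 midguts per library and 5 labelled biological replicates per group. Control males were w1118 and carried the transgene UAS-dHNF4 RNAi NIG9310-R2 with no GAL4 to activate it. The other males were w, with that transgene and mex-GAL4, a driver active in the absorptive enterocytes. No group held the driver without the transgene, so effects of mex-GAL4 and of the knockdown cannot be told apart. Values are TPM, a length-corrected share of all transcripts in a library, from which read numbers cannot be recovered, so sequencing depth is unknown here.

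The targeted gene Hnf4, which encodes a nuclear receptor, measured 33.5 to 45.8 TPM in the controls and 42.1 to 48.0 TPM in the libraries labelled dHNF4 RNAi. The TPM assigned to Hnf4 was thus not lower on this scale, where it was higher by 0.24 on the log2 scale (adjusted p = 0.0199 by limma). After median-of-ratios scaling it was lower by 0.35 (adjusted p = 0.000815 by limma), so its direction turned with the scaling. Whether RNA of the activated transgene adds to the TPM assigned to Hnf4 was not tested, so these values do not measure the targeted RNA alone. The TPM of all 8784 genes tested were shifted between the groups, with a median log2 fold change of 0.55 (1.46-fold), which median-of-ratios scaling of the libraries brought to 0.01. Fold changes of the members are therefore given on the deposited TPM and after that scaling, as libraries labelled dHNF4 RNAi over controls on the log2(TPM + 1) scale. Control replicate 2 lay apart from the other controls on the leading principal component, at -31.76 against -49.35 to -45.87. Of 10 enterocyte markers, 5 were higher and 2 lower on the deposited TPM, where 66.9% and 16.3% of all genes tested were. After rescaling 4 were higher and 5 lower, where 35.6% and 35.8% of all genes were. The summed TPM of these markers was 50278 to 65420 in controls and 41418 to 49416 in the other group, without overlap. Among them mex1 went from 490.0 ± 26.3 to 894 ± 47.6 TPM, while the digestive enzyme genes Mal-A1 and Amy-p went from 14481 ± 1425 to 6888 ± 655 TPM and from 18269 ± 1384 to 8595 ± 1389 TPM. In bulk samples, fewer cells of a type and less RNA per cell cannot be told apart. All 9 tested markers of stem cells and enteroblasts rose in the RNAi-labelled group on both scales, where 66.9% and 35.6% of all genes did. Their summed TPM was 144 to 163 against 18.7 to 43.0 in controls. Hindgut and trachea markers summed to 188 to 468 TPM in controls and 1569 to 1831 TPM in the other group, mostly from Mur29B. Of 9 tested, only 2 were higher and 2 lower, and 1 and 4 after rescaling, so the sum does not describe the list. Fat body markers summed to 346 to 517 TPM in controls and 253 to 299 TPM in the other group. The sums of enteroendocrine, visceral muscle and Malpighian tubule markers overlapped between the groups on the deposited TPM. After rescaling 9 of 10 visceral muscle markers were lower and 0 higher. Of 9 enteroendocrine markers tested 5 were then lower and 1 higher, and of 10 Malpighian tubule markers 2 and 1, where 35.8% and 35.6% of all genes were. The part of these marker differences in the chaperone results was not tested. Markers of testis and male accessory gland summed to at most 0.783 TPM in controls and 8.56 TPM in the other group, with Mst87F, Acp26Aa and SP at 0 in every control.

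The heat shock genes did not move together. Hsp60A and Hsf rose in the libraries labelled dHNF4 RNAi under both scalings, and Hsp68 fell under both. Hsc70-4 passed in opposite directions under the scalings, higher on the deposited TPM and lower after rescaling. Hsp26, Hsp27 and Hsp83 were lower after rescaling alone, and Hsp22, Hsp23 and Hsp67Bc passed on neither scale. By limma with Benjamini-Hochberg adjustment over all genes tested, 3 of the 10 members were higher and 1 was lower on the deposited TPM, where 66.9% of all genes tested were higher and 16.3% lower. After median-of-ratios scaling 2 members were higher and 5 lower, where 35.6% and 35.8% of all genes were. The median log2 fold change of the members was 0.10 beside 0.55 for all genes, and -0.42 beside 0.01 after rescaling. Without control replicate 2 the counts were 3 higher and 1 lower on the deposited TPM, and 2 higher and 4 lower after rescaling.

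**Figure D1:**
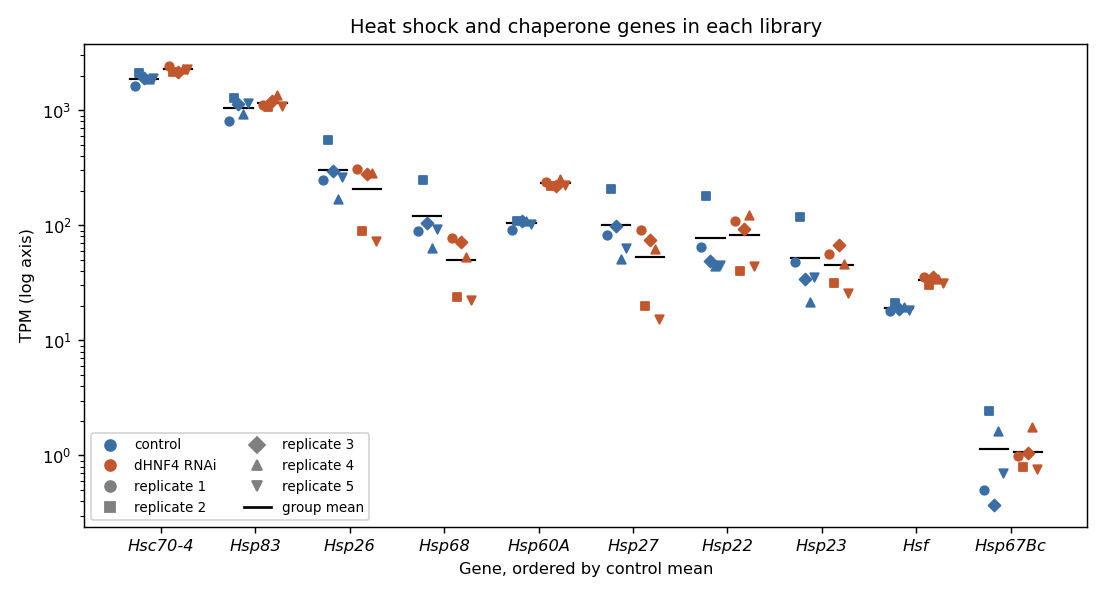
TPM (log axis) of each of the 10 genes in each of the 10 libraries, ordered by control mean. Blue points are controls and orange points are libraries labelled dHNF4 RNAi, the marker shape gives the replicate number and the black line is the group mean. The points of Hsp60A, Hsf and Hsc70-4 do not overlap between groups, while those of the small heat shock genes spread widely within each group.

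In the controls the members spanned levels from 1879 to 1.13 TPM. Hsc70-4 was the most abundant at 1879 ± 162 TPM (SD, n = 5), at the 99.0th percentile of genes tested, followed by Hsp83 at 1055 ± 190. Hsp26 came next at 304 ± 144 TPM, then Hsp68 at 120 ± 74.0, Hsp60A at 104 ± 8.24, Hsp27 at 100.5 ± 62.5, Hsp22 at 76.9 ± 59.1 and Hsp23 at 51.5 ± 38.2. Neighbours in the order from Hsp68 to Hsp23 differed by less than the SD of the more variable of each pair. Hsf stood at 19.2 ± 1.31 TPM and Hsp67Bc at 1.13 ± 0.883. In the libraries labelled dHNF4 RNAi, Hsp60A at 232 ± 13.5 TPM had a higher mean than Hsp26 at 207 ± 116, a gap within the SD of Hsp26.

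Of the small heat shock genes, 5 are members and lie in a single cluster on chromosome 3L. In the BDGP6.54 annotation these members span positions 9371511 to 9385694, a stretch of 14184 bases. The same stretch holds 2 small heat shock genes that are not members, CG4461 (9375430 to 9376293) and Hsp67Ba (9377802 to 9379534). Hsp67Bc lies at 9371511 to 9372497 (minus strand), Hsp22 at 9372931 to 9374964 (plus), Hsp26 at 9376418 to 9377427 (minus), Hsp23 at 9381882 to 9382765 (plus) and Hsp27 at 9384063 to 9385694 (plus). Hsp23, Hsp26, Hsp27, Hsp67Bc and, elsewhere, Hsp68 have a single exon in every annotated transcript, as do 9.79% of the genes tested that have an annotation. Hsp22 lies inside the annotated span of CG4456 on the same strand, so the division of reads between them is uncertain. Hsp27, Hsp68 and Hsp83 overlap the ends of CR43483, CG6000 and CG14966 on the opposite strand, and the library kit was stranded per the labels. CG4456 was low, at 0.739 to 11.9 TPM in controls and 1.14 to 11.9 TPM in the other group.

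Hsp22, a small heat shock protein of the mitochondrial matrix, measured 64.6, 182, 48.7, 44.3 and 45.2 TPM in control replicates 1 to 5. Replicates 1 to 5 labelled dHNF4 RNAi gave 108, 39.7, 93.4, 122 and 44.5 TPM. Control replicate 2 held the highest value of all 10 libraries, dHNF4 RNAi replicate 2 held the lowest, and the groups overlapped. Its log2 fold change came to 0.18 (SE 0.43, adjusted p = 0.698 by limma), and -0.41 with adjusted p = 0.396 after rescaling. Without control replicate 2 it was 0.55 (adjusted p = 0.147) on the deposited TPM.

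Hsp23, a cytosolic small heat shock protein, measured 48.3, 118, 34.3, 21.6 and 35.7 TPM in the controls and 56.7, 31.5, 67.0, 46.0 and 25.8 TPM in the other group. The groups overlapped over nearly their whole range, with control replicate 2 above all others and control replicate 4 below all others. The fold change came to -0.02 on the log2 scale (SE 0.40, adjusted p = 0.967 by limma), and -0.60 with adjusted p = 0.182 after rescaling.

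Hsp26, also cytosolic and the most abundant of the small heat shock members, measured 248, 548, 294, 168 and 261 TPM in the controls. The libraries labelled dHNF4 RNAi gave 311, 88.5, 278, 285 and 73.5 TPM. In this group 3 libraries sat among the controls and 2, replicates 2 and 5, sat below every control. The log2 change came to -0.69 (SE 0.45, adjusted p = 0.178 by limma) on the deposited TPM. After rescaling Hsp26 fell by 1.28 on the log2 scale (SE 0.44, adjusted p = 0.0228). That call was lost without control replicate 2 and without dHNF4 RNAi replicate 2, with a highest adjusted p of 0.0566.

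Hsp27, a small heat shock protein that also enters the nucleus, measured 81.6, 207, 99.3, 51.1 and 63.2 TPM in the controls and 91.4, 19.8, 74.4, 62.4 and 15.4 TPM in the other group, where its highest value was 5.92 times its lowest. Replicates 2 and 5 of that group again lay below every control and the other 3 did not. The log2 change came to -1.05 (SE 0.53, adjusted p = 0.0826 by limma), and it passed only without dHNF4 RNAi replicate 1 (-1.33, adjusted p = 0.0373). After rescaling Hsp27 fell by 1.64 on the log2 scale (SE 0.51, adjusted p = 0.0142), a call kept when any of the 10 libraries was left out.

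Hsp67Bc, a small heat shock protein linked to autophagy, was barely present. It measured 0.502, 2.45, 0.372, 1.62 and 0.705 TPM in the controls and 0.980, 0.787, 1.05, 1.76 and 0.768 TPM in the other group. The groups overlapped, and the change came to 0.03 on the log2 scale (SE 0.25, adjusted p = 0.911 by limma), or -0.25 with adjusted p = 0.387 after rescaling.

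Among the Hsp70 members, Hsp68 is a heat-inducible form and Hsc70-4 the constitutive cytosolic form. Hsp68 (chromosome 3R, 24055080 to 24057310, minus strand) measured 89.0, 250, 105, 63.2 and 93.5 TPM in the controls. The libraries labelled dHNF4 RNAi gave 78.2, 23.6, 71.7, 53.1 and 22.6 TPM. Replicates 1 and 3 of that group reached the level of the lowest control, and after rescaling the groups did not overlap. Hsp68 fell by 1.27 on the log2 scale (SE 0.43, adjusted p = 0.0161 by limma) and by 1.86 after rescaling (SE 0.41, adjusted p = 0.00190). Both calls were kept when any of the 10 libraries was left out, with log2 fold changes from -1.47 to -0.96 on the deposited TPM. The SE of 0.43 leaves the size of the decrease loosely determined.

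Hsc70-4 (chromosome 3R, 15242687 to 15246614, plus strand) measured 1636, 2092, 1896, 1873 and 1896 TPM in the controls. Those labelled dHNF4 RNAi gave 2429, 2166, 2150, 2286 and 2305 TPM. Every value in that group was above every control on the deposited scale. Hsc70-4 rose by 0.27 on the log2 scale (SE 0.070, adjusted p = 0.00321 by limma). After rescaling every value was below every control instead, at 1714 to 1950 against 2160 to 2418, and the gene fell by 0.33 on the log2 scale (SE 0.059, adjusted p = 0.000451). Of all genes tested, 7.51% passed in opposite directions under the scalings in this way. Relative to the median of all genes on the deposited scale, Hsc70-4 was at -0.27.

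Hsp83, the cytosolic Hsp90 that matures kinases and steroid receptors (chromosome 3L, 3192969 to 3197059, plus strand), is expressed at all times and induced further by heat. It measured 799, 1268, 1135, 919.9 and 1151 TPM in the controls and 1117, 1071, 1194, 1356 and 1093 TPM in the other group. The groups overlapped and the log2 fold change of 0.16 (SE 0.12) did not pass (adjusted p = 0.245 by limma). After rescaling it was -0.44 (SE 0.11, adjusted p = 0.00376), so the sign turned with the scaling.

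Hsp60A, the chaperonin of the mitochondrial matrix (chromosome X, 11108482 to 11112308, plus strand), gave the clearest increase among the members. It measured 90.4, 110, 108, 110 and 103 TPM in the controls and 239, 222, 222, 253 and 226 TPM in the libraries labelled dHNF4 RNAi. The lowest value of that group was above the highest control on both scales. Hsp60A rose by 1.15 on the log2 scale (SE 0.068, adjusted p = 6.35e-08 by limma), and by 0.55 after rescaling (SE 0.059, adjusted p = 9.82e-06). Its within-group SD of 0.10 on the log2 scale was at the 19.6th percentile of genes tested.

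Hsf encodes the transcription factor that binds the promoters of heat shock genes when cells are stressed (chromosome 2R, 18130303 to 18134634, minus strand, 7 to 9 exons per transcript). It measured 18.1, 21.3, 18.6, 19.6 and 18.3 TPM in the controls and 35.6, 30.2, 35.8, 33.9 and 31.4 TPM in the libraries labelled dHNF4 RNAi. The groups did not overlap on either scale. Hsf rose by 0.77 on the log2 scale (SE 0.068, adjusted p = 8.55e-07 by limma), and by 0.19 after rescaling (SE 0.048, adjusted p = 0.00396). The rise was thus 1.70-fold on the deposited TPM and 1.14-fold after rescaling, while the inducible gene Hsp68 fell. Hsf RNA does not measure the activity of the protein.

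**Figure D2:**
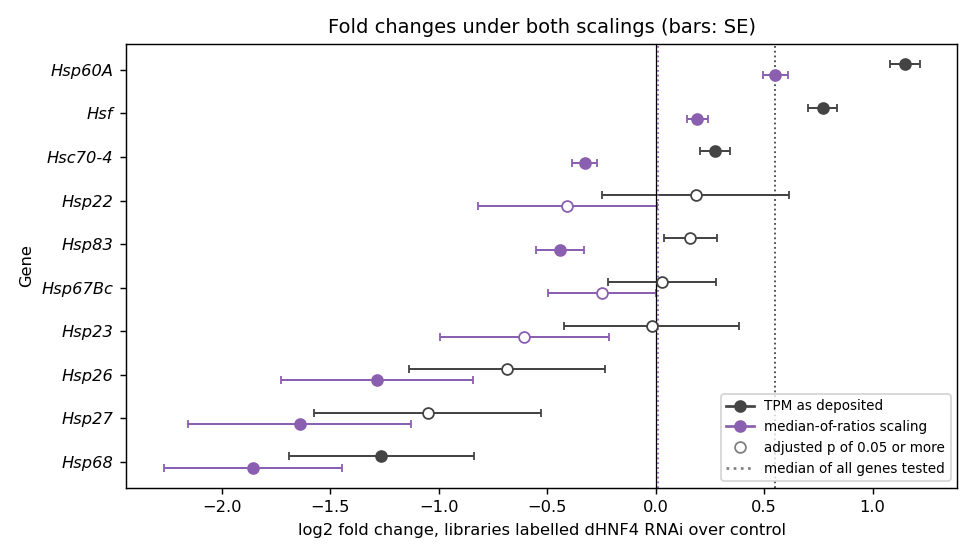
Log2 fold change of each gene (horizontal axis, libraries labelled dHNF4 RNAi over control, on log2(TPM + 1)) with its SE, on the deposited TPM (grey) and after median-of-ratios scaling (purple). Filled points have an adjusted p under 0.05 and dotted lines mark the median of all genes tested. Hsp60A and Hsf lie to the right of zero and Hsp68 to the left on both scales, and Hsc70-4 is filled on opposite sides.

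Groups that did not overlap on the deposited TPM were seen for Hsp60A, Hsf and Hsc70-4, all higher, where 60.3% of all genes tested were separated in this direction and 11.7% in the other. After rescaling the groups of Hsp60A and Hsf (higher, 28.6% of all genes) and of Hsp68 and Hsc70-4 (lower, 29.4%) did not overlap. In the authors' deposited table, which lists log2 fold changes with p-values that are not adjusted, Hsp60A was at 0.68 (p = 0.00467), Hsf at 0.27 (p = 0.256) and Hsc70-4 at -0.29 (p = 0.205). In the authors' deposited table Hsp68 was at -2.80 (p = 3.89e-05), Hsp27 at -2.51 (p = 0.00203) and Hsp26 at -1.73 (p = 0.0175). Of 10494 genes in the authors' deposited table, 21.9% were higher and 17.9% lower at an unadjusted p under 0.05. The authors' deposited table thus has Hsp26 and Hsp27 past 0.05 without adjustment, as on the rescaled TPM, and Hsf and Hsc70-4 short of it. Hsp83, lower on the rescaled TPM, was short of it too in the authors' deposited table, at -0.30 (p = 0.319). Hsp22, Hsp23 and Hsp67Bc were at -1.09, -1.23 and -1.31 in the authors' deposited table (p = 0.114, 0.0722 and 0.0556).

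The inducible members varied between libraries of the same group far more than the constitutive ones. The within-group SD of log2(TPM + 1) was 0.97 for Hsp27, 0.84 for Hsp26, 0.80 for Hsp22, 0.79 for Hsp68 and 0.74 for Hsp23, beside a median of 0.14 over all genes tested. These 5 genes lay between the 97.7th and the 98.7th percentile of genes tested. With Hsp67Bc at the 94.4th percentile, 6 of the 10 members were above the 90th percentile. Hsf, Hsp60A and Hsc70-4 were at the 17.6th, 19.6th and 20.6th percentiles, and Hsp83 at the 79.2nd.

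This variation ran in the same libraries. The mean deviation of Hsp22, Hsp23, Hsp26 and Hsp27 from their group means was 1.27 on the log2 scale in control replicate 2 and between -0.76 and -0.04 in the other controls. In the group labelled dHNF4 RNAi it was 0.72, 0.61 and 0.52 in replicates 1, 3 and 4, and -0.83 and -1.01 in replicates 2 and 5. The libraries of that group thus formed a high trio and a low pair in these genes. On the leading principal component of all genes the low pair sat at 45.83 and 42.63, within the range of 42.52 to 46.29 of the other 3. Summed stem cell and enteroblast markers were highest among the controls in control replicate 2 as well, and summed enterocyte markers were lowest there, at 50278 TPM against 56688 to 65420 TPM. The part of these differences in the heat shock values was not tested.

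**Figure D3:**
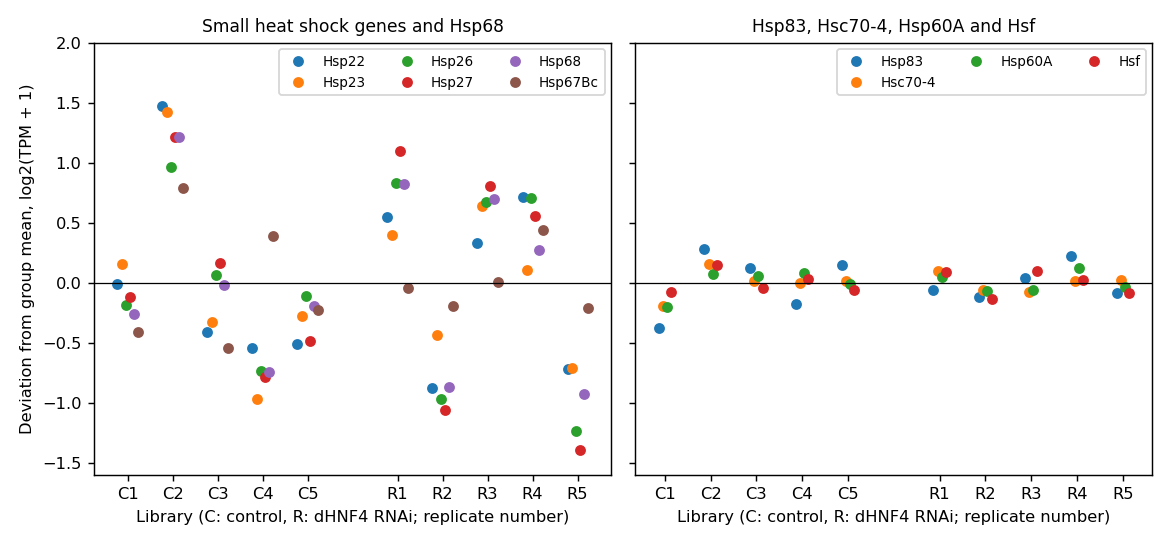
Deviation of each gene from its group mean on log2(TPM + 1) (vertical axis) in each library, for the 5 small heat shock genes and Hsp68 (left) and for Hsp83, Hsc70-4, Hsp60A and Hsf (right). C and R mark control libraries and libraries labelled dHNF4 RNAi with their replicate number. C2 is high and R2 and R5 are low for the genes on the left, with Hsp67Bc nearer to zero in R2 and R5, and the points on the right stay within a narrow band.

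As a description over the 10 libraries, with group means removed, Pearson's r between any pair of Hsp22, Hsp23, Hsp26, Hsp27 and Hsp68 was at least 0.839, and at least 0.823 after rescaling. The libraries are shared by all pairs, as is the scaling of each library. Over all 45 pairs of members r was above 0 in 45 on the deposited TPM and in 37 after rescaling. The share over all pairs of genes is not given, so these counts cannot be read as particular to the members. Outside the small heat shock genes, Hsp68 followed their mean with r = 0.983 and Hsf with r = 0.822, although Hsf varied little. Hsp60A had r = 0.290 and Hsc70-4 r = 0.396. After rescaling r was 0.981 for Hsp68 and 0.645 for Hsf, and the signs of Hsp60A (-0.147) and Hsc70-4 (-0.039) turned. Without the 2 libraries farthest from the median of that mean, control replicate 2 and dHNF4 RNAi replicate 5, r was 0.968 for Hsp68, 0.717 for Hsf and 0.125 for Hsp60A.

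Among all genes tested that are no member, the 3 whose deviations were most like the mean of Hsp22, Hsp23, Hsp26 and Hsp27 were copies of the heat-inducible Hsp70 gene. They were Hsp70Bbb (r = 0.987), Hsp70Bc (r = 0.984) and Hsp70Ab (r = 0.984), followed by CG7252 (r = 0.944) and CG12267 (r = 0.926). Without the same 2 libraries r was 0.981, 0.969, 0.974, 0.909 and 0.850 in that order. After rescaling these Hsp70 copies kept r of at least 0.982, and CG12267 was at 0.661. The other Hsp70 copies followed less closely, with r = 0.823 for Hsp70Bb, 0.520 for Hsp70Aa and 0.488 for Hsp70Ba. After rescaling they were at 0.803, 0.464 and 0.420. The division of reads between the copies is uncertain, so they are not separate matches. DnaJ-1, the main inducible J-domain partner of Hsp70, had r = 0.885 (0.845 after rescaling), and stv, a BAG-family co-chaperone induced with it, r = 0.669 (0.511).

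The other genes of the chaperone system were described from lists written from general knowledge. The remaining cytosolic Hsp70 and Hsp110 genes went both ways, with 3 of 8 tested higher and 2 lower, where 66.9% and 16.3% of all genes were. After rescaling 2 were higher and 3 lower, near the 35.6% and 35.8% of all genes (median 0.04, and -0.42 after rescaling). Hsc70Cb, the Hsp110 exchange factor for Hsp70, rose from 79.4 ± 9.45 to 125 ± 4.88 TPM (0.65, adjusted p = 1.09e-05 by limma), and stood at 0.06 with adjusted p = 0.372 after rescaling. The Hsp70 copies are nearly identical, so the division of reads between them is uncertain. Hsp70Bb went from 82.8 ± 65.1 to 467 ± 85.3 TPM and Hsp70Bbb from 60.8 ± 43.9 to 8.79 ± 5.64 TPM. Hsp70Ba was at 0.770 ± 0.687 and 4.44 ± 2.52 TPM. Hsp70Bc, the other copy that was lower, passed narrowly (-1.20, adjusted p = 0.0421 by limma, and -1.75 after rescaling), and the count of lower genes was 1 without any of control replicates 1, 2 and 3 or dHNF4 RNAi replicates 2 and 5.

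Summed over the 6 Hsp70 copies, which does not depend on the division of reads among them, the controls held 534, 1504, 660.2, 393 and 517 TPM. The libraries labelled dHNF4 RNAi held 1279, 611, 1221, 1247 and 597 TPM. Control replicate 2 was again the highest library and the low pair of the other group was again replicates 2 and 5. All 5 libraries of that group lay below control replicate 2. Without that library the controls spanned 393 to 660.2 TPM, with replicates 2 and 5 of the other group inside this range and replicates 1, 3 and 4 above it. After rescaling the latter 3 held 973 to 1027 against 475 to 838 in the controls other than replicate 2. Hsp70Bb alone held 380 and 385 TPM in dHNF4 RNAi replicates 2 and 5, against 47.9 to 199 TPM in the controls. Without Hsp70Bb those RNAi-labelled libraries would lie below every control on the deposited TPM. Replicates 1, 3 and 4 would still lie above the controls other than replicate 2. Leaving that copy out does depend on the division of reads.

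Of 7 further small heat shock genes 3 were tested, and all 3 were lower on both scales, where 16.3% of all genes were lower, and 35.8% after rescaling, with a median of -0.67, and -1.06 after rescaling. l(2)efl, a small heat shock protein of the HspB family, went from 274 ± 16.6 to 169 ± 11.1 TPM (-0.70, adjusted p = 1.15e-06 by limma, and -1.29 after rescaling). CG14207, the fly HspB8, was at -0.17 on the log2 scale and -0.77 after rescaling, and CG4461 at -0.67 and -1.06. The deviations of l(2)efl ran against the mean of Hsp22, Hsp23, Hsp26 and Hsp27, with r = -0.676 and -0.825 after rescaling. CG4461, which lies between Hsp22 and Hsp26 on the chromosome, had r = -0.380 and -0.415 after rescaling. The other 4 genes of this list were not tested, and CG13133 and CG43851 were listed at 0 in every library.

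Every tested gene of the cytosolic chaperonin CCT and of prefoldin was higher. CCT folds actin, tubulin and other proteins in a double ring, and prefoldin hands them over. All 14 were higher on the deposited TPM and all 14 after rescaling, where 66.9% and 35.6% of all genes tested were higher. The median log2 fold change was 1.13, and 0.54 after rescaling. CCT6 rose from 69.4 ± 7.52 to 176 ± 5.76 TPM (1.33, adjusted p = 4.16e-08 by limma, and 0.74 after rescaling), CCT4 from 62.7 ± 6.72 to 145 ± 7.05 TPM and CCT3 from 63.5 ± 7.55 to 145 ± 3.67 TPM. The prefoldin gene mgr rose from 40.8 ± 2.40 to 79.8 ± 2.56 TPM. The stem cell and enteroblast markers given above were higher in the same libraries, and their part in this result was not tested.

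Of 9 mitochondrial chaperone and protease genes tested, 8 were higher and none lower, where 66.9% and 16.3% of all genes were. After rescaling 4 were higher and 1 lower, near the 35.6% higher of all genes (median 0.69, and 0.11 after rescaling). CG11267, the Hsp10 that caps the Hsp60 chamber, rose from 81.9 ± 9.54 to 201 ± 20.6 TPM (1.29, adjusted p = 2.34e-07 by limma). Hsc70-5, the mitochondrial Hsp70, rose from 72.7 ± 7.61 to 134 ± 9.30 TPM and its exchange factor Roe1 from 24.9 ± 1.65 to 52.1 ± 4.61 TPM. Lon, a matrix protease, rose from 15.5 ± 1.03 to 30.7 ± 0.521 TPM. These 4 genes were higher after rescaling as well, by 0.28 to 0.69 on the log2 scale. The related Hsp60B, Hsp60C and Hsp60D stayed below the filter.

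Of 13 co-chaperones of Hsp70 and Hsp90 tested, 12 were higher and 1 lower, where 66.9% and 16.3% of all genes were, and 7 and 2 after rescaling, where 35.6% and 35.8% were (median 0.79, and 0.22 after rescaling). Cdc37, which brings kinases to Hsp90, rose from 36.6 ± 1.87 to 75.6 ± 4.68 TPM (1.03, adjusted p = 5.65e-08 by limma). The Hsp90 co-chaperones Fkbp59 and p23 rose from 31.9 ± 3.27 to 70.9 ± 3.54 TPM and from 127 ± 10.5 to 241 ± 7.57 TPM. Sgt rose from 54.1 ± 3.66 to 98.9 ± 4.25 TPM. These 4 genes were higher after rescaling too, by 0.27 to 0.54, while Hsp83 itself was lower there. stv was the co-chaperone that fell, from 307 ± 38.0 to 233 ± 26.8 TPM.

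Of 20 J-domain proteins tested, which present clients to Hsp70, 13 were higher and 2 lower, near the 66.9% and 16.3% of all genes. After rescaling 6 were higher and 11 lower, beside 35.6% and 35.8% (median 0.37, and -0.18 after rescaling). mrj rose from 26.5 ± 2.71 to 51.9 ± 2.53 TPM and CG17187 from 4.21 ± 0.423 to 8.49 ± 0.583 TPM. CG7133 rose from 12.6 ± 0.349 to 21.0 ± 0.572 TPM. CG32641 fell from 267 ± 20.9 to 144 ± 12.1 TPM, while the similarly named CG32640 rose by 0.92 on the log2 scale and by 0.34 after rescaling. Both lie on the plus strand of chromosome X, each 519 bases long, CG32640 from 13178005 and CG32641 from 13184478. The division of reads between CG32640 and CG32641 was not tested, so their opposite directions are uncertain. The inducible DnaJ-1 was at 396 ± 73.3 and 340 ± 77.2 TPM, and its log2 fold change of -0.23 did not pass (adjusted p = 0.222 by limma), whereas it was -0.83 with adjusted p = 0.000531 after rescaling.

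**Figure D4:**
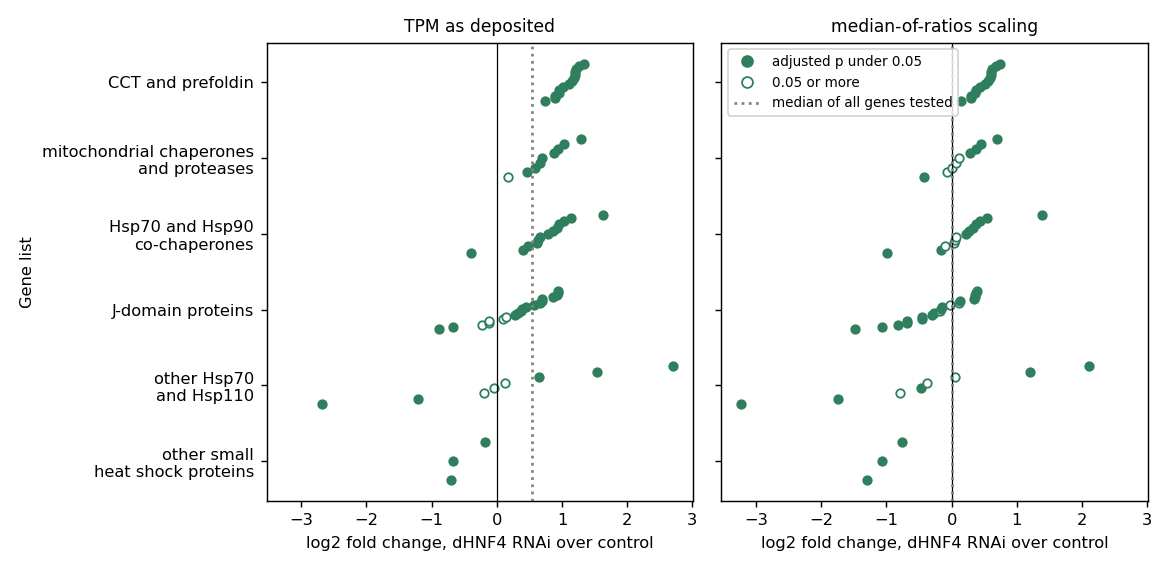
Log2 fold change (horizontal axis, libraries labelled dHNF4 RNAi over control, on log2(TPM + 1)) of each tested gene of 6 chaperone lists, on the deposited TPM (left) and after median-of-ratios scaling (right). Each point is a gene, filled where its adjusted p is under 0.05, and the dotted line is the median of all genes tested. All 14 CCT and prefoldin genes lie to the right of zero in both panels and all 3 further small heat shock genes to the left.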

How the data were processed

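The authors deposited TPM per gene for 10 libraries, 1 column per labelled replicate, and a second table of log fold changes with p-values that are not adjusted. Column totals of the deposited TPM were 975327 to 982443. Per the labels, libraries were made with a stranded TruSeq kit, and per the submitters' processing notes FastQC, Trim Galore, kallisto and edgeR were used with the build BDGP6. Which of them made which table, their versions and any scaling between libraries are not given in the sources used here. The name of the authors' deposit includes RUVSeq, which the processing notes do not list, and how it was used is not described. Deposited log2 values and p-values appear only where the authors' table is named, and their direction was taken from the TPM means because the header does not state it.

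The pseudocount of 1 in log2(TPM + 1) makes fold changes of scarce transcripts too small. Genes averaging 1 TPM or more over the libraries, 8784 in number, were fitted with limma 3.58.1 in R 4.3.3 (mean-variance trend, two-sided, no covariate), and calls were made at an adjusted p under 0.05 over all of them. P-values measure the spread between the labelled replicates. Median-of-ratios factors were taken over the genes tested that are above 0 in every library. The fit was tested on simulated data. Positions came from the BDGP6.54 annotation, to which 14263 identifiers matched. The named genes were the 10 members, up to 4 called genes per chaperone list by smallest adjusted p, and Hnf4. The 5 genes most like Hsp22, Hsp23, Hsp26 and Hsp27 were named too. CG4456, CR43483, CG6000, CG14966, Hsp67Ba, CG13133, CG43851, Hsp60B, Hsp60C, Hsp60D, CG32640, DnaJ-1, stv and the named marker genes were added after their values were seen. The sum of the Hsp70 copies and the medians of spread were likewise added after the values were seen. The members and lists were chosen with earlier results of these data known. Replicates sharing a number were not paired, as the correlations of their deviations ran from -0.33 to 0.36.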

Additional observations from a re-analysis of the deposited data

Results flagged for a closer look

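Over the 76 sets of 5 libraries (38 genes in each group), 10 held a library far from the other 4. Chance alone marks about 1 in 20 independent sets. These sets share libraries, and some genes were named for following Hsp22, Hsp23, Hsp26 and Hsp27. The count of 10 therefore cannot be set against that rate. In 9 of the 10 sets the library was control replicate 2, which was the highest control. Its values were 182 TPM for Hsp22, 118 TPM for Hsp23 and 250 TPM for Hsp68. They were 1094 TPM for Hsp70Ab, 199 TPM for Hsp70Bb, 137 TPM for Hsp70Bbb and 57.8 TPM for Hsp70Bc. Cdc37 at 39.8 TPM and mrj at 31.3 TPM stood apart in the same library. The remaining one was Hsp67Bc at 1.76 TPM in dHNF4 RNAi replicate 4.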

How the results depend on the processing

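All genes higher went from 5878 to 3129 and all genes lower from 1429 to 3145, and with quantile normalization they were 3902 and 2547. Lower members numbered 5 with median-of-ratios scaling, 5 with the replicate block added to it and 2 with quantile normalization, against 1. J-domain genes were 6 higher and 11 lower with median-of-ratios scaling and 8 and 8 with quantile normalization, with 1 lower at a minimum of 5 TPM. Co-chaperones were 7 higher and 2 lower with median-of-ratios scaling and 2 lower with quantile normalization. Mitochondrial genes were 4 higher and 1 lower with median-of-ratios scaling. Other Hsp70 genes lower numbered 1 with no filter, with the replicate block and with robust moderation, against 2. Leaving out each library in turn gave 1 to 2 lower members on the deposited TPM and 4 to 5 after median-of-ratios scaling, and 1 to 2 lower Hsp70 genes. With the replicate block, all genes were 5849 higher and 1400 lower. Replicate numbers did not pair the libraries, and 1 control correlated best with its own number. Combining median-of-ratios scaling with left-out libraries or with the replicate block was chosen after seeing the data. Where not shown by the construction of the alternative, the cause was not tested.

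Signs turned for these log2 fold changes. With median-of-ratios scaling they were -0.30 for CG12267, -0.35 for Hnf4, -0.33 for Hsc70-4, -0.41 for Hsp22, -0.25 for Hsp67Bc and -0.44 for Hsp83, the same for the members with the replicate block. With quantile normalization they were -0.27 for CG12267, -0.18 for Hnf4, -0.15 for Hsp22 and -0.18 for Hsp67Bc. Hsp67Bc was at -0.00533 with a pseudocount of 5 and at -0.026 after leaving mitochondrially encoded and the 20 most abundant genes out of the scaling. Leaving out each library gave, after median-of-ratios scaling, -0.35 to -0.30 for Hsc70-4, -0.59 to -0.08 for Hsp22, -0.51 to -0.39 for Hsp83 and -0.40 to -0.06 for Hsp67Bc. With both scalings the ranges were -0.35 to 0.31 for Hsc70-4, -0.59 to 0.55 for Hsp22, -0.86 to 0.34 for Hsp23, -0.51 to 0.23 for Hsp83 and -0.40 to 0.23 for Hsp67Bc, and Hsp70Ab on the deposited TPM ran from -0.38 to 0.093. TPM keeps no depth, so counting error is unknown.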
